A study of Homo sapiens with 40 samples.

Results

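Cassette exons of middling use, which a cell both includes and skips in the transcripts of the same gene, were examined where the exon length is a multiple of 3. Adding or leaving out such an exon keeps the downstream reading frame, so a cell can switch between related protein forms. Exons whose length is not a multiple of 3 shift the frame when they are included or skipped. A multiple of 3 does not ensure an open frame, because the exon may carry a stop codon of its own or lie in a noncoding transcript. Much splicing takes place while RNA polymerase II is still transcribing the gene, so the splice sites around a cassette exon become available one after the other as the polymerase moves.

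The exons were chosen by measured values: exon length of 51 to 299 nt, length divisible by 3 and WT inclusion of 20% to 80% in the authors' RNA-seq comparisons. This selected 1137 of 15724 exon events, in 948 genes. Inclusion is the share of inclusion in the sum of inclusion and exclusion, computed from the ratios in the authors' deposited tables. Because the WT level selected the exons, the RNA-seq comparisons with the same WT libraries are given as a description, and nothing is supported with them. The RASL-seq libraries took no part in the choice.

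The cells were HEK293 Flp-in T-REx, a human embryonic kidney line with an integration site for an inducible transgene. Each line carried an α-amanitin-resistant form of Rpb1, the large subunit of RNA polymerase II, either WT or with the substitution R749H, H1106Y or E1126G. All groups, WT included, had doxycycline for 12 to 16 h to induce the transgene and then α-amanitin for 42 h to block the cells' own polymerase. R749H and H1106Y are known as slow polymerases and E1126G as a fast one. WT, R749H and E1126G were sequenced by RNA-seq in 2 libraries apiece. All 4 genotypes were measured in 3 libraries apiece by RASL-seq, in which probe pairs are ligated across chosen exon junctions and counted. The labels call the RNA-seq libraries biological replicates but name no separate cultures or clones. The deposited tables give 1 value per genotype and a p-value per event, so no spread between libraries can be shown, and the depth is unknown. All calls below are deposited p-values after Benjamini-Hochberg adjustment over every event of a table, at an adjusted p below 0.05. The test behind the p-values is unknown, and they may measure technical spread alone.

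The half-included exons had a median length of 111 nt, with quartiles of 81 and 150 nt. The intron before them had a median of 2189 nt and the intron after them 2286 nt, against 1924 and 1838 nt over all events of 51 to 299 nt. Of the 1137 exons, 1043 lay in protein-coding genes, 32 in long noncoding RNA genes and 31 in pseudogenes, and 31 had no entry in the annotation. Most genes had 1 such exon (799 genes), and 119 genes had 2. DMKN, a secreted epidermal protein, had 5 rows, which stand for 3 distinct exons. In all there were 1081 distinct exons, since an exon can be listed with several spans or gene identifiers. Exon lengths divisible by 3 made up 46.0% of the events with 20% to 80% WT inclusion, 39.6% below 20% and 42.7% above 80%.

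Exons at the edges of the window lie close to others just outside it. An 84-nt exon of MRRF and a 177-nt exon of MMS22L lay at 20%, the lower limit, and exons of STAU1 and GPS1 just missed it at 19.8% by the authors' deposited table. Exons of ANXA2 and TTC23 lay at 80%, and a 93-nt exon of PCBP2 was just above at 80.1% by the authors' deposited table. By length, 38 half-included events had 51 nt and 20 had 48 nt, which left them outside.

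In R749H cells an exon of ST7 went from being mostly included to almost always skipped, and an exon of HNRNPDL went the opposite way. The 69-nt exon of ST7, a gene named as a suppressor of tumorigenicity (chromosome 7, 116774178 to 116774246, + strand, GRCh37), was at 74.1% in WT and 4.46% in R749H by the authors' deposited table (log2 change of the ratio −5.94, adjusted p = 2.4e-24). HNRNPDL encodes an RNA-binding hnRNP. Its 105-nt exon (chromosome 4, 83346716 to 83346820, − strand) was at 23.6% in WT and 88.6% in R749H by the authors' deposited table (log2 change 4.65, adjusted p = 5.2e-49). Both exons crossed the midpoint, in opposite directions.

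Other large falls in R749H included exons of genes for transcription and signalling. The zinc finger factor ZFX had a 111-nt exon that fell from 75% to 7.69% by the authors' deposited table. A 54-nt exon of AKAP13, an anchor of protein kinase A, fell from 72.2% to 10.5%, and 51-nt exons of YIPF1 from 69.8% to 7.69% and of BLTP1 from 66.7% to 9.52%, by the authors' deposited table. LINC01128, a long noncoding RNA without a reading frame to keep, and the unnamed gene ENSG00000232995 were also among the 8 largest falls. The exons named here lay at 66.7% to 76.5% in WT and at 7.69% to 13.3% in R749H.

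Exons that R749H cells included more came from genes of several kinds. RICTOR, a defining subunit of mTOR complex 2, had a 72-nt exon that rose from 25.6% to 79.5% by the authors' deposited table. A 102-nt exon of MRPS28, part of the small mitochondrial ribosomal subunit, rose from 25.5% to 83.8%, and a 177-nt exon of CR2, a complement receptor, from 25% to 88.9%, by the authors' deposited table. For RALGPS2, an activator of Ral GTPases, a 78-nt exon rose from 27.9% to 81.1% by the authors' deposited table. RASL-seq placed this exon at 87.2% in WT and 97.6% in R749H, also called. Exons of CHFR, DGLUCY and PASK also belonged to the 8 largest rises, which ended at 71.9% to 88.9%.

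Over the whole set, 292 of 1078 half-included frame-keeping exons measured in R749H were called, 27.1%, with 134 higher and 158 lower. Of all exon events of that table, 15.1% were called, 7.07% higher and 8.04% lower. Exons near the middle of the range have reads for both forms, and all events do not, so the shares are not like for like and nothing is read from them. The median log2 change was −0.28 over the half-included frame-keeping exons and −0.00479 over all events. The smallest called change was 11.2 points of inclusion and the median called change 27.4 points. In R749H cells 194 of the 1078 exons were below 20% inclusion and 175 above 80%, while the other 709 stayed within the window. Only 87 of the 194 and 69 of the 175 were called. The rule placed every WT value inside the window, so exons could only leave it, and nothing is read from these numbers.

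**Figure D1:**
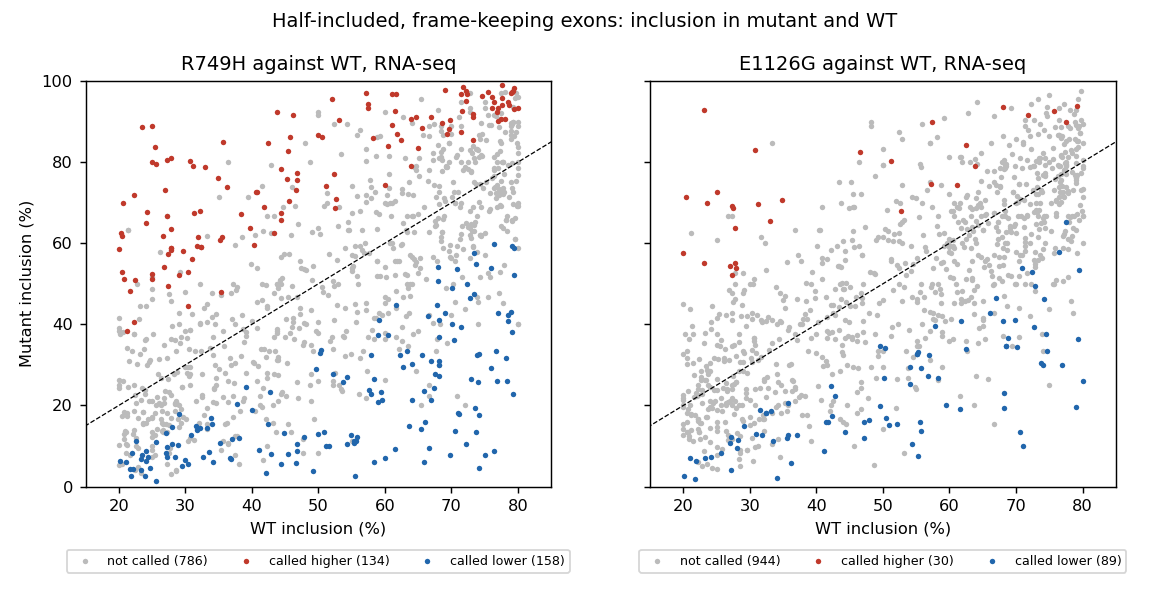
Inclusion (%) of each half-included frame-keeping exon in WT (horizontal axis) and in R749H or E1126G (vertical axis) in RNA-seq, with called exons in red (higher) and blue (lower) and the dashed line at equal inclusion. R749H has 134 red and 158 blue points, and E1126G has 30 red and 89 blue points, most of them below the line.

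E1126G cells had fewer calls and more of them toward skipping. In the authors' deposited table a 51-nt exon of TCF7L2, a transcription factor of Wnt signalling (chromosome 10, 114918426 to 114918476), fell from 71.1% to 10% in E1126G (log2 change −4.46, adjusted p = 0.0015). A 60-nt exon of NF2, which encodes merlin (chromosome 22, 30079009 to 30079068), fell from 79.0% to 19.6% in E1126G (adjusted p = 1.7e-04) and had 65.4% in R749H (adjusted p = 0.58) by the authors' deposited table. RASL-seq placed the NF2 exon at 99.55% in WT, 99.1% in R749H, 97.5% in H1106Y and 96.7% in E1126G. Each mutant was called lower there. The 63-nt exon of ENAH, the added exon of the epithelial Mena form of this actin regulator (chromosome 1, 225692693 to 225692755), fell from 55.3% to 7.47% in E1126G and to 10.8% in R749H by the authors' deposited table. A 57-nt exon of PTPN13, a tyrosine phosphatase, fell from 68.2% to 19.3% in E1126G and 27.2% in R749H by the authors' deposited table. The kinase gene BRSK2, the zinc finger gene ZNF138, the giantin gene GOLGB1 and SLC66A2 held the other exons of the 8 largest falls.

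Few exons were included more with E1126G. MBNL2 is a splicing regulator, and its 54-nt exon, of a kind known to govern nuclear localisation, rose from 30.8% to 83.0% in E1126G and to 80.3% in R749H by the authors' deposited table. RASL-seq placed this exon at 88.7% in WT, 97.9% in E1126G and 95.9% in H1106Y, both called, and 91.5% in R749H (adjusted p = 0.39), by the authors' deposited tables. HNRNPDL reached 69.9% in E1126G, against 23.6% in WT, by the authors' deposited table. A 297-nt exon of YPEL5 rose from 27.5% to 68.6% in E1126G and had 47.4% in R749H (adjusted p = 0.059) by the authors' deposited table. MEGF6, OBSL1, CR2, DGLUCY and B3GALNT2 gave the other exons of the 8 largest rises. Altogether 119 of 1063 exons were called in E1126G, 11.2%, with 30 higher and 89 lower. Of all events measured there, 6.48% were called, 2.2% higher and 4.27% lower. The median log2 change was −0.19 over the half-included frame-keeping exons and −0.08 over all events.

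Calls in opposite directions between the slow R749H and the fast E1126G polymerase were few in RNA-seq. Both comparisons share the WT libraries, so their values are set side by side and the difference between the mutants was not tested. A 195-nt exon of SLC29A1, a nucleoside transporter (chromosome 6, 44193710 to 44193904), was at 35.6% in WT, 61.5% in R749H and 12.0% in E1126G by the authors' deposited tables. A 177-nt exon listed under both TREX2, a DNA exonuclease, and HAUS7, an augmin subunit, was at 32.4% in WT, 59.1% in R749H and 18.1% in E1126G by the authors' deposited tables. These genes overlap, so the reads cannot be assigned to either.

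RASL-seq measured 328 of the 1137 exons. Its levels differ from those of RNA-seq: the median WT inclusion of these exons was 37.4% in RASL-seq and 55.8% in RNA-seq, and 112 exons were below 20% and 63 above 80% in RASL-seq. The median gap between the assays was 22.7 points, and across the 328 exons Pearson's r was 0.41 and Spearman's correlation 0.42, over exons that share genes and libraries. Levels are therefore compared within an assay.

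With R749H, the largest falls in RASL-seq were in EXOC7 and SLAIN1. A 93-nt exon of EXOC7, a subunit of the exocyst that tethers secretory vesicles (chromosome 17, 74087224 to 74087316), fell from 57.2% in WT to 13.8% by the authors' deposited table (log2 change −3.06, adjusted p = 4.6e-16). A 150-nt exon of SLAIN1, a microtubule plus-end protein, fell from 59.4% to 20.9% by the authors' deposited table. ST7 fell from 48.4% to 12.4% and AKAP13 from 90.5% to 54.8% in this assay too by the authors' deposited table. TBX3, a T-box transcription factor, had a 60-nt exon that fell from 51.5% in WT to 15.2% in R749H, fell to 3.11% in H1106Y and stood at 39.3% in E1126G (adjusted p = 0.074), by the authors' deposited tables. Exons of ADAM22 and SYNE2 were also among the 8 largest falls. The largest rise was that of a 126-nt exon of SUOX, sulfite oxidase, from 10% to 46.7% by the authors' deposited table (adjusted p = 0.030). The SUOX exon was not called in H1106Y (adjusted p = 0.17) or in R749H RNA-seq (adjusted p = 0.11). A 165-nt exon of OS9, a lectin of protein quality control in the endoplasmic reticulum, rose from 31.5% to 59.6% in R749H, and a 78-nt exon of DNM1L, the mitochondrial fission GTPase, from 48.3% to 75.5%, by the authors' deposited table. Exons of PPP4R3A, ARHGEF28, RCC1 and IPO9 rose by 26.6 to 32.8 points. Of 317 exons, 150 were called in R749H (47.3%), 62 higher and 88 lower, beside 44.1% of all RASL-seq events, 24% higher and 20.1% lower. The called share was near that of all events, with the larger number of calls lower in the half-included frame-keeping exons and higher in all events.

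H1106Y, the other slow polymerase, was measured by RASL-seq alone. A 120-nt exon of ACIN1, a component of the complex left on spliced RNA, rose from 38.6% in WT to 93.1% in H1106Y and 53.7% in R749H by the authors' deposited tables. RCC1, the nucleotide exchange factor of Ran, had overlapping exons of 51 and 93 nt that share a RASL-seq value, which rose from 21.9% to 85.9% in H1106Y and 48.8% in R749H by the authors' deposited tables. Another RCC1 exon, of 129 nt, fell from 47.0% to 7.14% in H1106Y and to 26.2% in R749H by the authors' deposited tables, so exons of a gene moved in opposite directions. The 129-nt exon of APAF1 that adds a WD40 repeat to this apoptosome protein rose from 30.8% to 82.4% in H1106Y and had 38.5% in R749H (adjusted p = 0.54) by the authors' deposited tables. In RNA-seq the APAF1 exon was called higher in R749H, from 58.2% to 86.05% (adjusted p = 0.0038). RICTOR rose from 25.8% to 71.9% in H1106Y and to 38.3% in R749H by the authors' deposited tables.

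The 111-nt exon of PEX5, which makes the long form of this peroxisomal import receptor, fell from 53.0% to 16.1% in H1106Y and rose to 68.7% in R749H by the authors' deposited tables. A 93-nt exon of OSBPL6, an oxysterol-binding protein, fell from 93.3% to 35.7% in H1106Y and had 91.7% in R749H (adjusted p = 0.79) by the authors' deposited tables. In RNA-seq, however, the OSBPL6 exon was called lower in R749H, from 54.8% to 12.7% (adjusted p = 8.3e-04). The PEX5 exon had 52% in R749H against 63% in WT in RNA-seq (adjusted p = 0.24). The difference between the slow polymerases was not tested in either exon. In H1106Y 192 of 291 exons were called (66.0%), 91 higher and 101 lower, beside 61.9% of all events, 23.7% higher and 38.2% lower. The median log2 change was −0.21 in the half-included frame-keeping exons and −0.33 in all events. Counted from the table's median, 92 of the calls were higher and 100 lower.

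In E1126G the RASL-seq calls lay mostly on the side of skipping. ADAM22, a neuronal surface protein, had an 87-nt exon that fell from 64.9% to 21.2% by the authors' deposited table, and an 84-nt exon of AKAP11 fell from 66.1% to 29.4%. A 231-nt exon of the kinase gene MAP3K8 fell from 89.3% to 34.5% by the authors' deposited table. The 84-nt exon of VLDLR that encodes its O-linked sugar domain fell from 56.7% to 27.9% in E1126G and had 44.9% in R749H (adjusted p = 0.24) by the authors' deposited tables. A 57-nt exon of NRCAM, a neural adhesion molecule, fell from 62.8% to 31.8% in E1126G by the authors' deposited table. This exon also fell in R749H, to 49.9%, and rose to 76.5% in H1106Y, both called. RNA-seq did not call it in E1126G (adjusted p = 0.54). The largest rise was that of the SUOX exon, from 10% to 70%, followed by exons of IPO9 and LINC02802, by the authors' deposited table. Among smaller rises, exons of chromatin remodelling subunits reached 85.1% from 65.9% in BPTF and 31.3% from 13.3% in SMARCC2 by the authors' deposited table. The BPTF exon was called lower in H1106Y, at 42%. In HMBOX1 a 72-nt exon rose from 51.7% to 72.6% in E1126G and fell to 15.4% in H1106Y by the authors' deposited tables. In total 176 of 320 exons were called (55%), 43 higher and 133 lower, beside 47.5% of all events, 13.9% higher and 33.6% lower. Medians of the log2 change were −0.46 for the half-included frame-keeping exons and −0.37 for all events, and counted from the table's median 45 calls were higher and 131 lower.

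RASL-seq also gave several exons opposite calls in R749H and E1126G. The 51-nt exon of MTA1, a subunit of the NuRD chromatin complex, was at 78.9% in WT, 84.7% in R749H, 88.8% in H1106Y and 50.9% in E1126G by the authors' deposited tables, and the same coordinates are listed under TEX22. A 60-nt exon of the histone demethylase gene KDM1A was at 79.5% in WT, 84.1% in R749H, 92.1% in H1106Y and 73.1% in E1126G by the authors' deposited tables. MED15, a Mediator subunit, had a 120-nt exon at 85.8% in WT, 90.8% in R749H, 94.9% in H1106Y and 80.3% in E1126G by the authors' deposited tables. In these 3 genes, both slow polymerases lay above WT and the fast one below in RASL-seq, each called. CPEB4, a regulator of translation, had the same order in its 51-nt exon, from 63.1% in E1126G through 73.7% in WT to 83.4% in R749H and 85.7% in H1106Y by the authors' deposited tables. The palmitoyltransferase gene ZDHHC20 went the other way, with 58.7% in WT, 49.8% in R749H, 25.1% in H1106Y and 65.3% in E1126G by the authors' deposited tables. ARHGAP12 and FBXW11 completed this group. H1106Y was called below WT in the 63-nt FBXW11 exon and had 62.8% against 66.9% in ARHGAP12 (adjusted p = 0.27). A 162-nt FBXW11 exon was almost always skipped, at 0.329% in WT, 0.764% in R749H, 0.600% in H1106Y and 0.146% in E1126G. R749H RNA-seq did not call the exons of MTA1, KDM1A, MED15 or CPEB4 (adjusted p = 0.59, 0.85, 0.52 and 0.85). It called the ZDHHC20 exon lower, from 34.0% to 15.4% (adjusted p = 0.035), the direction of RASL-seq. The 63-nt FBXW11 exon was called lower there too, opposite to RASL-seq. R749H lay below WT there in MTA1 and CPEB4. Of these exons, E1126G RNA-seq called that of MTA1 alone, from 68.5% to 34.8%.

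The assays share no library, so R749H and E1126G could be followed from RNA-seq to RASL-seq, although the labels do not say whether both used the same RNA. For R749H 314 exons were in both assays. RNA-seq called 103 of them, of which 70 were also called in RASL-seq (68.0%), 68 in the same direction. Of those 68, 21 were higher and 47 lower. RASL-seq called 47.5% of all 314 exons. For E1126G 309 exons were in both assays, and of 49 called in RNA-seq 45 were also called in RASL-seq (91.8%), 4 higher and 41 lower in both. The called share over all 309 was 55.3%. Over all events of any length and level, 67.2% of the R749H calls and 82.8% of the E1126G calls of RNA-seq were also called in RASL-seq. Of all events called in both assays, 98.2% in R749H and 99.4% in E1126G had the same direction. The half-included frame-keeping exons were thus near all events in direction.

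**Figure D2:**
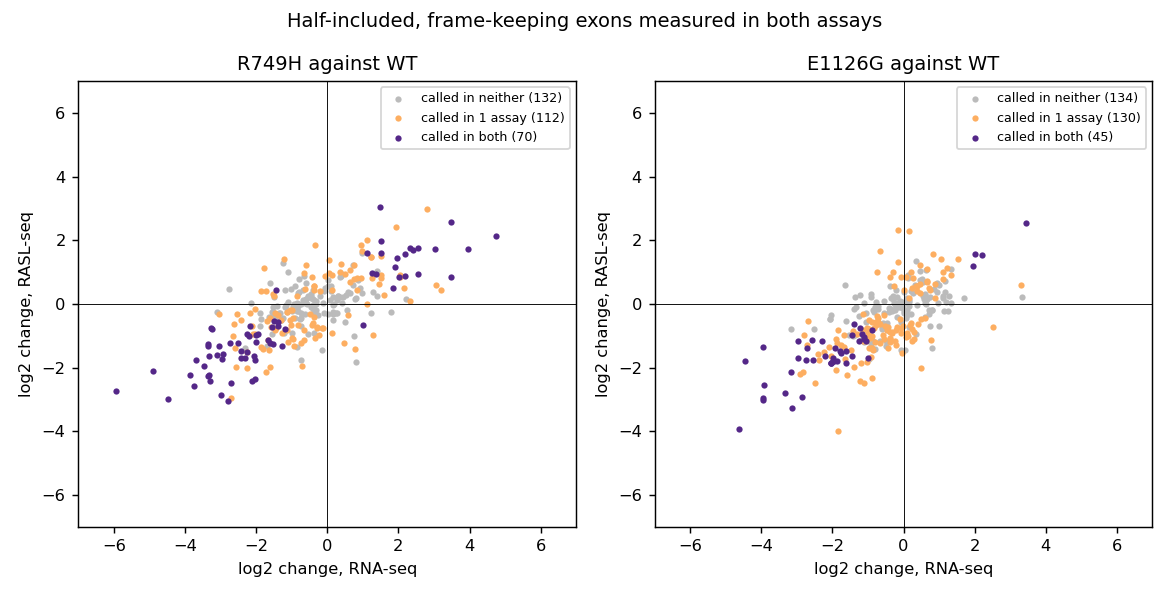
Log2 change of the inclusion ratio against WT in RNA-seq (horizontal) and RASL-seq (vertical), 1 point per half-included frame-keeping exon measured in both, for R749H (314) and E1126G (309). Of the exons called in both assays, 68 of 70 for R749H and 45 of 45 for E1126G lie in the lower left or upper right quadrant. Over all events called in both, the shares with the same direction were 98.2% and 99.4%.

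Of 276 half-included frame-keeping exons measured in all 5 comparisons, 17 were called in each, of which 14 were lower throughout, 1 was higher throughout and 2 were mixed. Over all 1430 events measured in all 5, 5.17% were called in each, 3.36% lower throughout and 1.4% higher throughout. The comparisons of an assay share WT libraries. The 57-nt exon of RAC1 that distinguishes the Rac1b form of this small GTPase (chromosome 7, 6438293 to 6438349) was at 34.1% in WT, 5.95% in R749H and 2.06% in E1126G by the authors' deposited RNA-seq tables. In RASL-seq it was at 7.81% in WT, 3.27% in R749H, 2.93% in H1106Y and 0.553% in E1126G by the authors' deposited tables. Its level was lowest with the fast polymerase in both assays, and the differences between the mutants were not tested. The 72-nt exon of VEGFA known as exon 6a, which encodes part of the heparin-binding region of this growth factor (chromosome 6, 43748469 to 43748540), fell from 28% to 14.6% in R749H and 9.6% in E1126G by the authors' deposited RNA-seq tables. In RASL-seq it fell from 28.2% to 18.7% in R749H, 23.7% in H1106Y and 10.1% in E1126G by the authors' deposited tables.

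CSNK1A1 encodes casein kinase 1α, and its 84-nt exon adds the L insert to the kinase. This exon (chromosome 5, 148897357 to 148897440) fell from 21.0% to 6.16% in R749H and 7.14% in E1126G by the authors' deposited RNA-seq tables. RASL-seq placed it at 83.0% in WT, 59.0% in R749H, 29.8% in H1106Y and 63.6% in E1126G by the authors' deposited tables. The WT levels of this exon differ widely between the assays, and the direction did not. MACF1, a linker of actin and microtubules, had a 111-nt exon that fell from 27.1% to 8.38% in R749H and 4.06% in E1126G by the authors' deposited RNA-seq tables, and from 14.5% to 0.991% in H1106Y in RASL-seq. TCF7L2, PTPN13, PUF60, ENAH, ENTR1, SLAIN1, EXOC7, BCAS3 and RSRC2 also held exons that were lower throughout.

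TRA2B was the exception that rose throughout. Its 276-nt exon (chromosome 3, 185649365 to 185649640) is a poison exon, divisible by 3 in length but known to carry stop codons. It rose from 27.8% to 58.9% in R749H and 63.8% in E1126G by the authors' deposited RNA-seq tables, and RASL-seq had it at 80.2% in WT, 90.1% in R749H, 89.1% in H1106Y and 92.2% in E1126G. GPBP1, a promoter-binding factor, and EIF4A2, an initiation factor helicase, had exons that fell in R749H and E1126G in both assays but rose in H1106Y. The 60-nt exon of GPBP1 was at 54.0% in WT, 36.9% in R749H, 34.3% in E1126G and 73.6% in H1106Y by the authors' deposited RASL-seq tables. The 111-nt exon of EIF4A2 was at 29.4% in WT, 20.3% in R749H, 16.2% in E1126G and 42.8% in H1106Y by the authors' deposited RASL-seq tables.

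**Figure D3:**
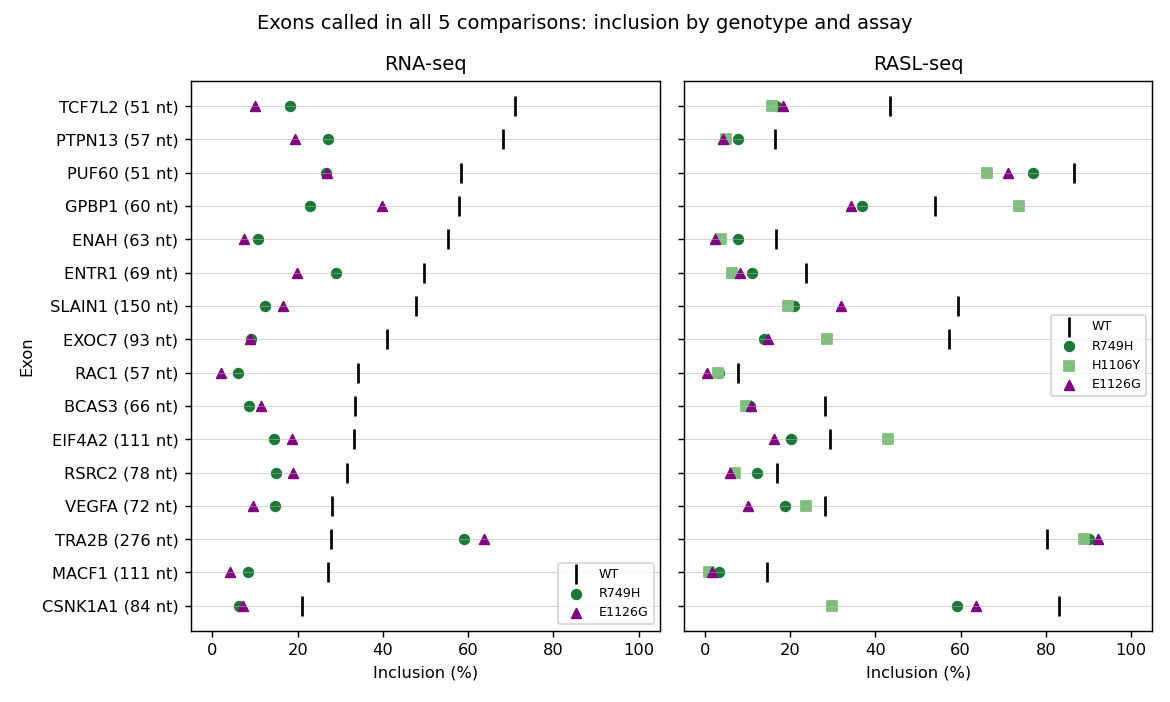
Inclusion (%) of 16 of the 17 exons called in all 5 comparisons, by genotype, in RNA-seq (left) and RASL-seq (right), with WT as a black bar and 1 point per mutant. The TRA2B exon lies to the right of its WT bar in each mutant, and GPBP1 and EIF4A2 lie to the right in H1106Y alone.

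The genes were also read by 8 lists of gene function, described by counts and medians. Over all events the called shares were 15.1% in R749H and 6.48% in E1126G RNA-seq, and 44.1% in R749H, 61.9% in H1106Y and 47.5% in E1126G RASL-seq. The half-included frame-keeping exons as a whole were called at 27.1% and 11.2% in RNA-seq and at 47.3%, 66.0% and 55% in RASL-seq. The median log2 changes over all events were −0.00479 and −0.08 in RNA-seq and 0.05, −0.33 and −0.37 in RASL-seq.

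Genes for actin, spectrin and the membrane skeleton held 25 of the exons in 20 genes. In RNA-seq 9 of 22 were called in R749H and 7 of 23 in E1126G, each lower, with median log2 changes of −1.70 and −1.38. RASL-seq called 11 of 14 in R749H (10 lower), 9 of 13 in H1106Y (7 lower) and 12 of 16 in E1126G (10 lower), with medians of −1.24, −1.17 and −1.06. EPB41L1, a protein 4.1 relative that ties spectrin and actin to the membrane, had an 84-nt exon at 55.6% in WT, 2.5% in R749H and 16% in E1126G by the authors' deposited tables. An 81-nt row of the same exon with another start was also lower in both.

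Exons of endocytosis and membrane traffic genes numbered 36. In RNA-seq 15 of 35 were called in R749H (4 higher, 11 lower) and 5 of 36 in E1126G (1 higher, 4 lower). RASL-seq called 6 of 16 in R749H (1 higher, 5 lower), 7 of 15 in H1106Y (3 higher, 4 lower) and 7 of 14 in E1126G (2 higher, 5 lower). VTI1A, a SNARE protein, had a 108-nt exon that fell from 63.6% to 14.8% in R749H RNA-seq by the authors' deposited table. A 123-nt exon of GOLGB1 fell from 79.3% to 22.7% there. RASL-seq placed the GOLGB1 exon at 4.96% in WT and 1.515% in R749H, also called lower.

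Microtubule, motor and centrosome genes had 33 exons. In RNA-seq 4 of 32 were called in R749H (1 higher, 3 lower) and 1 of 28 in E1126G, lower, shares below those of the half-included frame-keeping exons as a whole. RASL-seq called 3 of 10 in R749H (2 higher), 5 of 9 in H1106Y (4 higher) and 4 of 10 in E1126G (0 higher). CEP164, a protein of centriole appendages, had a 78-nt exon that fell from 71.1% to 17.9% in R749H and a 147-nt exon that rose from 42.5% to 84.7% by the authors' deposited table. The 87-nt exon of MAPT that encodes an N-terminal insert of tau fell from 64.0% to 30.2% in R749H by the authors' deposited RNA-seq table, and had 31.6% against 33.9% in WT in RASL-seq (adjusted p = 0.65). In E1126G the MAPT exon had 27.3% in RNA-seq (adjusted p = 0.21) and 15.3% in RASL-seq (adjusted p = 2.0e-09).

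Splicing factors were mixed. Of 8 exons in SR proteins and SR-related factors, 3 were higher and 2 lower in R749H RNA-seq, and 1 was higher and 2 lower in E1126G RNA-seq. The 3 measured by RASL-seq were called in each mutant there, 2 higher and 1 lower. Of 13 exons in hnRNPs and other splicing regulators, 3 were higher and 1 lower in R749H RNA-seq, and 2 higher and 2 lower in E1126G RNA-seq. RASL-seq called 1 of 5 in R749H, lower, 4 of 4 in H1106Y (2 higher) and 3 of 4 in E1126G (1 higher). ACIN1 rose from 44.3% to 78.3% and LUC7L3, a relative of a U1 snRNP protein, from 69.4% to 86.8% in R749H by the authors' deposited RNA-seq table. A 123-nt exon of MATR3, a nuclear matrix RNA-binding protein, rose from 38.4% to 67.2%, and a 51-nt exon of PUF60, which takes part in 3′ splice site recognition, fell from 58.3% to 26.6%, in R749H by the authors' deposited RNA-seq table. A 78-nt exon of RSRC2 fell from 31.6% to 14.9% in R749H by the authors' deposited RNA-seq table.

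Chromatin and transcription regulators had 44 exons. In RNA-seq 10 of 41 were called in R749H (4 higher, 6 lower) and 5 of 44 in E1126G (2 higher, 3 lower). RASL-seq called 14 of 24 in R749H (7 higher, 7 lower), 19 of 23 in H1106Y (11 higher, 8 lower) and 16 of 25 in E1126G (4 higher, 12 lower). The 111-nt exon of HDAC7, a class II histone deacetylase, rose from 35.6% to 84.9% in R749H by the authors' deposited RNA-seq table. RASL-seq placed this exon at 2.63% in WT and gave no R749H value.

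Kinases and phosphatases also had 44 exons. In RNA-seq 11 of 42 were called in R749H (7 higher, 4 lower) and 4 of 41 in E1126G (0 higher, 4 lower). RASL-seq called 10 of 19 in R749H and 10 of 18 in H1106Y (7 higher and 3 lower in each) and 10 of 20 in E1126G (3 higher, 7 lower). A 132-nt exon of NEK1, a kinase linked to cilia, rose from 20.6% to 70% in R749H by the authors' deposited table.

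Adhesion and surface receptor genes had 24 exons. In RNA-seq 5 of 21 were called in R749H (2 higher, 3 lower) and 1 of 22 in E1126G, higher. RASL-seq called 3 of 7 in R749H, each lower, 2 of 6 in H1106Y (1 higher, 1 lower) and 3 of 7 in E1126G, each lower. In CD46, a complement regulator, the 93-nt exon that sets its cytoplasmic tail fell from 74.1% to 32.7% in R749H and had 66.2% in E1126G (adjusted p = 0.49) by the authors' deposited tables. Differences between the lists were not tested.

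**Figure D4:**
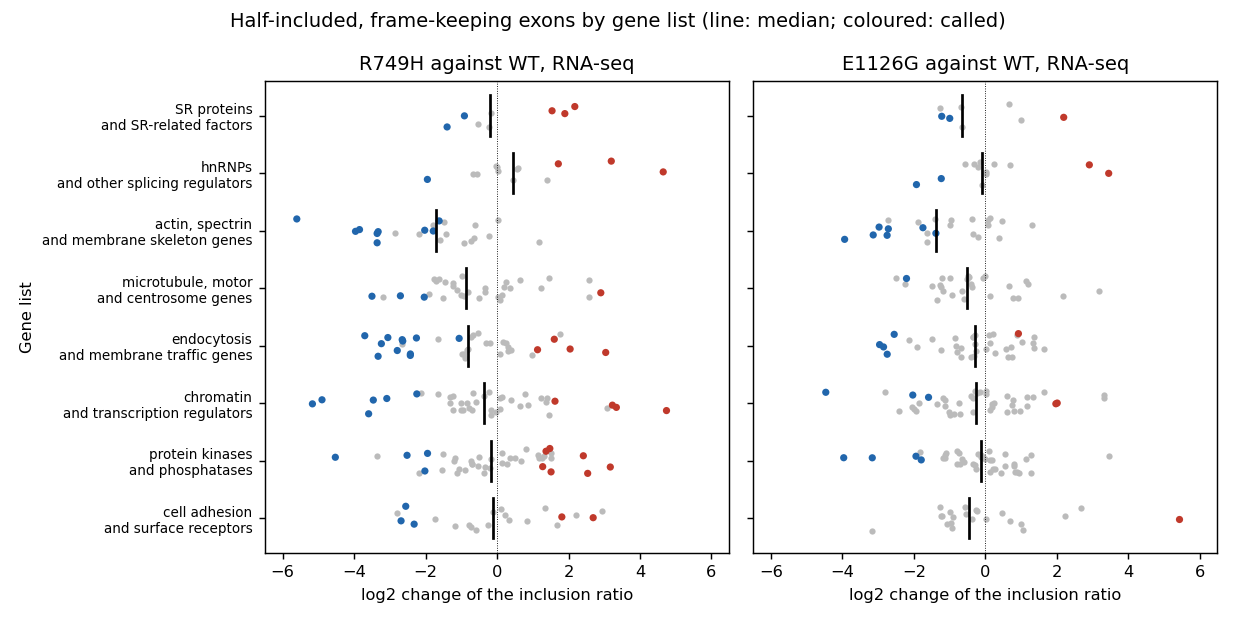
Log2 change of the inclusion ratio in RNA-seq for the half-included frame-keeping exons of 8 gene lists in R749H (left) and E1126G (right), 1 point per exon, red where called higher, blue where called lower, with the median as a line. The actin, spectrin and membrane skeleton list has medians of −1.70 and −1.38 and no red point.

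The direction of change differed with exon length, which the rule used only as a window and for divisibility by 3. Of the exons of 51 to 75 nt, 18 of 244 were higher and 57 lower in R749H RNA-seq, with a median log2 change of −0.64. Among those of 76 to 120 nt the numbers were 46 higher and 65 lower of 394 (median −0.45). From 121 to 299 nt, 70 were higher and 36 lower of 440 (median 0.21). E1126G RNA-seq gave 3 higher and 36 lower, 6 and 33, and 21 and 20 in the same order, with medians of −0.65, −0.25 and 0.11. In RASL-seq the short exons had 18 higher and 34 lower in R749H and 9 and 60 in E1126G, and the long ones 24 and 18 and 19 and 28. For H1106Y the short exons had 30 higher and 35 lower and the long ones 30 and 28. Over all events, whatever their level or frame, R749H RNA-seq had 102 higher and 273 lower at 51 to 75 nt, 305 and 389 at 76 to 120 nt, and 486 and 283 at 121 to 299 nt. E1126G RNA-seq had 32 and 170, 79 and 189, and 170 and 115. In RASL-seq all events at 51 to 75 nt and at 121 to 299 nt had 92 higher and 95 lower against 198 and 116 in R749H, 95 and 144 against 168 and 250 in H1106Y, and 31 and 197 against 156 and 155 in E1126G. All events thus also held a larger share of higher calls at 121 to 299 nt than at 51 to 75 nt in R749H and E1126G in both assays, while the shares were close in H1106Y.

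Counts by the length of the introns on either side follow. Where both flanking introns summed to at most 2000 nt, 61 of 228 exons were higher and 18 lower in R749H RNA-seq, with a median log2 change of 0.72. Above 2000 and up to 10000 nt the numbers were 53 higher and 90 lower of 508 (median −0.40), and above 10000 nt 20 and 50 of 342 (median −0.50). RASL-seq for R749H had 17 higher and 5 lower, 17 and 55, and 28 and 28 in the same order. E1126G had 14 higher and 13 lower, 11 and 60, and 5 and 16 in RNA-seq, and 11 and 12, 15 and 69, and 17 and 52 in RASL-seq. H1106Y had 17 higher and 11 lower, 34 and 54, and 40 and 36 in RASL-seq. Median WT inclusion in RNA-seq was similar, at 53.7%, 51.9% and 57.5% for the R749H exons of the 3 classes. Over all events in the same order, R749H RNA-seq had 462 higher and 169 lower, 423 and 659, and 130 and 326, and E1126G RNA-seq had 136 and 154, 136 and 341, and 51 and 131. In RASL-seq all events had 112 and 37, 182 and 254, and 246 and 160 in R749H, 93 and 80, 196 and 380, and 202 and 331 in H1106Y, and 65 and 85, 150 and 378, and 106 and 314 in E1126G. In each of the 5 comparisons the share of higher calls was larger at up to 2000 nt than in the middle class, both in the half-included frame-keeping exons and in all events. No test was made of these class differences, and the class limits were set for this description.

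Some of the flanking introns were also measured for retention in RNA-seq. In R749H 29 flanking introns were tested in 24 genes and 3 were called, 1 more and 2 less retained, beside 18.9% of all 2605 introns. In E1126G 28 were tested in 23 genes and 3 were called, each less retained, beside 9.18% of all 2615 introns. The intron after a 126-nt exon of ABCD4, a lysosomal transporter protein, was retained at 52.2% in WT, 71.5% in R749H (adjusted p = 0.035) and 74.1% in E1126G (adjusted p = 0.077) by the authors' deposited tables. Its exon was at 68.8% in WT, 66% in R749H (adjusted p = 0.90) and 36.7% in E1126G (adjusted p = 0.039) by the authors' deposited tables. The 123-nt intron after a 96-nt exon of ISCU, a scaffold for iron-sulfur clusters, was retained at 75.1% in WT, 63.7% in R749H (adjusted p = 0.039) and 60.5% in E1126G (adjusted p = 0.035) by the authors' deposited tables. Its exon was at 35.4% in WT, 48.0% in R749H (adjusted p = 0.049) and 44.1% in E1126G (adjusted p = 0.35) by the authors' deposited tables.

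The 481-nt intron after an exon of the noncoding gene SNHG29 was retained at 8.08% in WT, 2.73% in R749H and 4.43% in E1126G, both called, by the authors' deposited tables. The exon stood at 63.2% in WT and R749H and 66.6% in E1126G, neither called, by the authors' deposited tables. The intron before the OS9 exon was retained at 12.4% in WT, 5.84% in E1126G (adjusted p = 0.024) and 9.80% in R749H (adjusted p = 0.54) by the authors' deposited tables. That exon rose from 61.1% to 89.2% in R749H and 74.3% in E1126G by the authors' deposited RNA-seq tables. These 4 genes were named because they held the called introns.

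Frame-shifting exons chosen by the same length and level, 1337 in number, are set beside them. In R749H RNA-seq 143 of 1241 were higher and 120 lower, with a median log2 change of 0.05, whereas the frame-keeping exons had 134 and 158 of 1078 and a median of −0.28. In E1126G RNA-seq the frame-shifting exons had 46 higher and 73 lower of 1244, with a median of −0.04. RASL-seq called 51 higher and 38 lower of 191 frame-shifting exons in R749H, 50 and 66 of 177 in H1106Y, and 25 and 70 of 194 in E1126G. In R749H the larger number of calls was thus lower for frame-keeping and higher for frame-shifting exons in both assays. The difference between the groups was not tested.

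**Figure D5:**
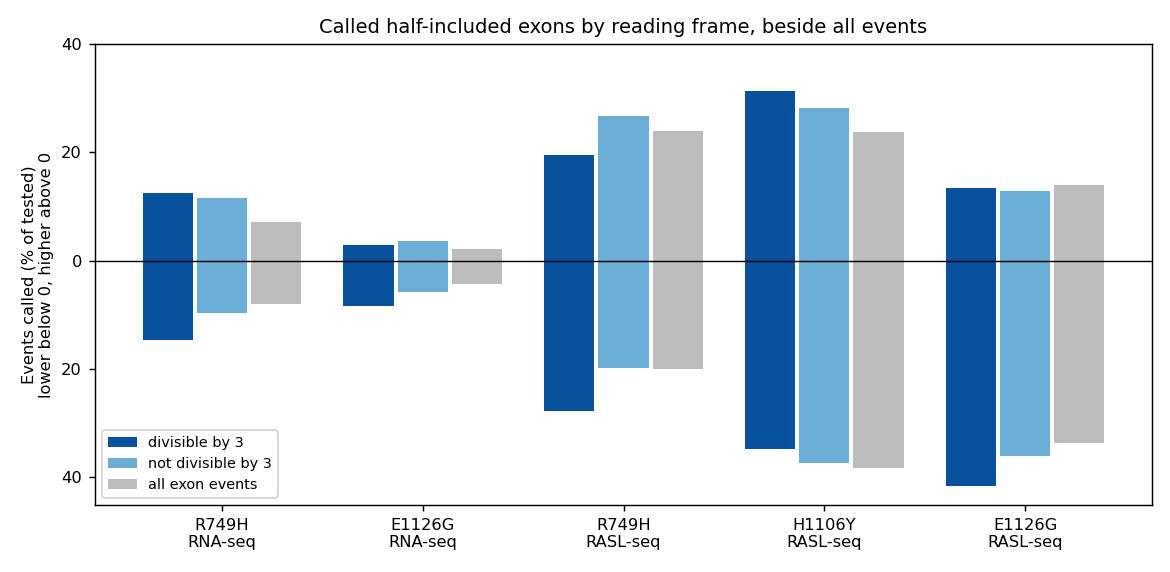
Share of exons called (% of those tested) higher (above 0) and lower (below 0) in each comparison, for half-included exons with length divisible by 3 (dark), not divisible by 3 (light) and all exon events (grey). In R749H RASL-seq the dark bars reach 19.6% higher and 27.8% lower, the light bars 26.7% and 19.9%.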

How the data were processed

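RNA-seq of poly(A)+ RNA (100 bp paired reads) and RASL-seq were deposited by the authors as comparisons of a mutant with WT, with no value per library and no counts, so the depth is unknown. Per the labels' protocols, RNA-seq reads were mapped with TopHat 1.4.1. The submitters' processing notes also name Bowtie 0.12.7 and edgeR 3.7.17, with no role, and the build GRCh37. Each deposited row holds the natural log of the WT inclusion to exclusion ratio, the mutant's log2 change of this ratio, and an unadjusted p-value. Which test gave the deposited p-value was not given in the sources used here. R749H tables carry a code in their names, which the R749H samples' labels tie to that mutant.

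Inclusion was computed as 100 times the ratio over 1 plus the ratio, and is not corrected for junction number or probe efficiency. Benjamini-Hochberg adjustment ran over every event of each table, with calls below 0.05 (Python 3.11.15, pandas 2.3.3, statsmodels 0.14.6). Flanking intron lengths come from the spans in the deposited tables, and coordinates are 1-based. Gene symbols were found for 928 of 948 identifiers, and gene classes come from RefSeq by symbol. Named exons were the 8 largest called rises and falls in each of the 5 comparisons, those called in opposite directions in R749H and E1126G, those called in all 5, those at the edges of the window and up to 4 per gene list. The exons, gene lists and tests were chosen with earlier results of these data known. Alternatives were other thresholds and adjustments, a WT window of 30% to 70%, a minimum change of 10 points, a ratio halved before the window and centring on the table's median. GRO-seq was not analysed here. Exon sequences are not shown. Some exons that the naming rule selects are not reported here.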

Additional observations from a re-analysis of the deposited data

How the results depend on the processing

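Lower calls outnumbered higher ones under each alternative run for the counts of R749H, H1106Y and E1126G calls, except that 66 higher and 64 lower H1106Y calls changed by at least 10 points. At an adjusted p below 0.01 the RNA-seq counts went from 292 to 191 in R749H and from 119 to 62 in E1126G, and exons called the same way in both assays in E1126G from 45 to 28. Holm adjustment left 75 and 23 exons in RNA-seq and 76 of 150, 125 of 192 and 113 of 176 in RASL-seq (R749H, H1106Y, E1126G). Benjamini-Yekutieli adjustment left 163 and 47 in RNA-seq. A WT window of 30% to 70%, which holds fewer exons, gave 159 and 70 in RNA-seq and 90, 119 and 105 in RASL-seq. A change of at least 10 points was met by 81 RASL-seq calls in R749H and 91 in E1126G. Requiring 20% to 80% WT inclusion in RASL-seq too, an alternative chosen after seeing the data, gave 80, 103 and 87. Halving the ratio before the window, for the 2 junctions of an included exon, gave 17 higher and 87 lower E1126G calls in RNA-seq in place of 30 and 89. Of 80 results for single named exons, 8 lost the call at 0.01, 26 with Holm and 13 with Benjamini-Yekutieli adjustment. No paired analysis was possible because the deposited tables hold no value per library, and for the same reason no library could be left out.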

Other observations

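Called in R749H by both assays in opposite directions were 2 exons. A 225-nt exon of MAZ, a zinc finger transcription factor, rose from 52.4% to 68.7% in RNA-seq and fell from 57% to 45.4% in RASL-seq in the authors' deposited tables. The 63-nt exon of FBXW11, a substrate adaptor of a ubiquitin ligase, fell from 79.4% to 58.8% in RNA-seq and rose from 12.8% to 16.5% in RASL-seq in the authors' deposited tables.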
